A study of Caenorhabditis elegans with 44 samples.

Results

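The pals genes are a Caenorhabditis elegans gene family, and the 36 genes described here are all those of the 22013 in the N2 mRNA table whose WBcel235 symbol is pals followed by a number, without pals-22 and pals-25. They were chosen by name, and no measured value entered the choice. All 36 are annotated as protein-coding. A total of 15 lie on chromosome I, 12 on III, 2 on IV and 7 on V.

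The study sequenced mRNA and small RNA (sRNA) from synchronized L1 larvae, in 44 libraries and 4 tables. The N2 laboratory strain gave 10 mRNA libraries (wild type 2, the mutant rrf-3(pk1426) 3, the mutant pals-22(pig26) 3, the double mutant of these alleles 2) and 6 sRNA libraries, 3 of wild type and 3 of pals-22(pig26). The otIs356 background gave 14 libraries of each kind: 4 of wild type, 4 of vsra-1(tm1637), 3 of pals-22(pig26) and 3 that combine both alleles. Every otIs356 animal, wild type included, carries a repetitive array integrated into the genome, with TagRFP sent to the nuclei of neurons by the rab-3 promoter. The allele pig26 is an in-frame deletion in pals-22, rrf-3 encodes an RNA-dependent RNA polymerase of the endogenous siRNA pathway, and vsra-1 encodes an Argonaute protein. Libraries are named below by genotype and by the replicate number of their title. The labels do not say whether libraries of a genotype came from separate cultures, so the p-values measure the spread between libraries, which may be technical.

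The pals family is named for a protein signature shared by its members, and in C. elegans it is greatly expanded. Several members, pals-5 among them, are switched on by microsporidia and by the Orsay virus, both of which infect the intestine. They belong to the intracellular pathogen response, a transcriptional programme that PALS-22 holds down and that its genomic neighbour PALS-25 switches on. The biochemical function of most members is not known, so the text groups them by position, level and antisense sRNA.

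Levels are given in CPM, the count of a gene relative to its library's total, with TMM scaling factors applied to that total. Antisense sRNA levels are given in RPM, the same unit for sRNA reads. Levels of different genes are compared per kb of exon, and without that division only where said. The deposited mRNA values are labelled as scaled per gene, and the kind of scaling is not given in the sources used here. If it already corrects for gene length, values per kb correct for it a second time. Orders, medians and correlations by mRNA level between genes could then differ. A change is the log2 fold change of edgeR's quasi-likelihood test with its standard error (SE). A gene is called at a Benjamini-Hochberg adjusted p under 0.1 over all genes tested in that comparison. Total counts were 36498609 to 61806727 per library for N2 mRNA, 5479218 to 33903511 for otIs356 mRNA, 11483077 to 43362769 for N2 sRNA and 7950015 to 21594026 for otIs356 sRNA. In the otIs356 mRNA table, wild type 4, vsra-1 replicates 3 and 4 and double-mutant replicate 1 stood apart from the libraries of their genotype, and in the otIs356 sRNA table double-mutant replicate 1 did. Counts of called members in edgeR's test that rest on these libraries are given with and without them.

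The deletion leaves most of pals-22 in place, so its mRNA does not check the labels. The gene measured 26.5 and 26.8 CPM in the N2 wild-type libraries and 49.9, 51.5 and 45.4 in pals-22(pig26), and it rose by 0.88 ± 0.069 (SE, log2). Its neighbour pals-25 measured 15.2 and 15.8 CPM in wild type against 28.6, 27.6 and 27.7, a rise of 0.85 ± 0.0729. In rrf-3(pk1426), rrf-3 measured 1.9, 1.98 and 1.97 CPM against 5.45 and 6.29 in wild type.

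In front of the genes, the letters TGATAA, in either orientation, were searched from 250 bases before to 50 bases after each gene start. This is a form of the GATA element that stands in front of many C. elegans intestinal genes. It occurred in 15 of the 36 members (41.7%) and in 6026 of 19973 protein-coding genes (30.2%). Among the 28 members whose N2 mRNA rose by more than 2 (log2) in pals-22(pig26), 13 held it, and among the 7 members that changed by less than 1, only pals-21 did. Both limits were set after the values were seen. Strongly responding members without a copy include pals-11 at 9.92 and pals-5 at 8.73, and pals-24, with 2 copies, rose by less than 2. In 6 members, pals-1, pals-8, pals-9, pals-10, pals-14 and pals-27, a copy began 104 to 120 bases before the gene start, a spacing picked out after the positions were seen.

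The windows of 3 members are shown as hand-picked examples, which do not stand for the family. The windows are those of a strongly responding gene with 2 copies (pals-28), another with 1 copy (pals-39) and the member on V that was not called (pals-34), which has none. They are read from the WBcel235 genome as 5′ to 3′ in the direction of the gene, with TGATAA and its reverse complement TTATCA in capitals. The windows are chrIII:4384537-4384836 on the plus strand, chrV:12443805-12444104 on the minus strand and chrV:7956448-7956747 on the minus strand. A match of letters is a description of the window and does not show binding.
pals-28: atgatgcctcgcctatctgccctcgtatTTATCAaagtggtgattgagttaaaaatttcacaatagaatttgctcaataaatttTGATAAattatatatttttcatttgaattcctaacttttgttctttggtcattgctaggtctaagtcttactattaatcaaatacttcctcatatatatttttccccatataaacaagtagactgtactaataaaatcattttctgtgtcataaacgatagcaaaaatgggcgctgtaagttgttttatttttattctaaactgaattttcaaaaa
pals-39: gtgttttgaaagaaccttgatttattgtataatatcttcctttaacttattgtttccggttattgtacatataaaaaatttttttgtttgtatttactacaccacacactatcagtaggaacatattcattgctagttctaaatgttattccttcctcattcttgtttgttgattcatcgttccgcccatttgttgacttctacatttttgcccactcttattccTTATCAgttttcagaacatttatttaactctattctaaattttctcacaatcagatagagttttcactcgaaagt
pals-34: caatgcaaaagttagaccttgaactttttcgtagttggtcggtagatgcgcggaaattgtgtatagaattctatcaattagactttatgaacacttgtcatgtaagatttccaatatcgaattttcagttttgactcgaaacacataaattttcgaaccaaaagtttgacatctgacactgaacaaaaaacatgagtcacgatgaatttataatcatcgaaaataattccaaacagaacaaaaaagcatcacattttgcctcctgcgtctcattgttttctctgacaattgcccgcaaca

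Loss of pals-22 raised most of the family in N2. Of the 36 members, all tested, 32 were called higher, 2 lower and 2 were not called in pals-22(pig26) against wild type. The share called was 51.1% over all genes tested, 23.3% higher and 27.8% lower. The median change of the members was 6.25 (log2), with a range of -0.72 to 10.8, and the median of all genes tested was -0.02. The summed level of the family was 231 and 247 CPM in the wild-type libraries and 10400 to 10800 CPM in the mutant libraries. The members called higher were pals-1 to pals-17, pals-20, pals-21, pals-23, pals-24, pals-26 to pals-33 and pals-37 to pals-39. The members pals-18 and pals-19 were lower, and pals-34 and pals-40 were not called.

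**Figure D1:**
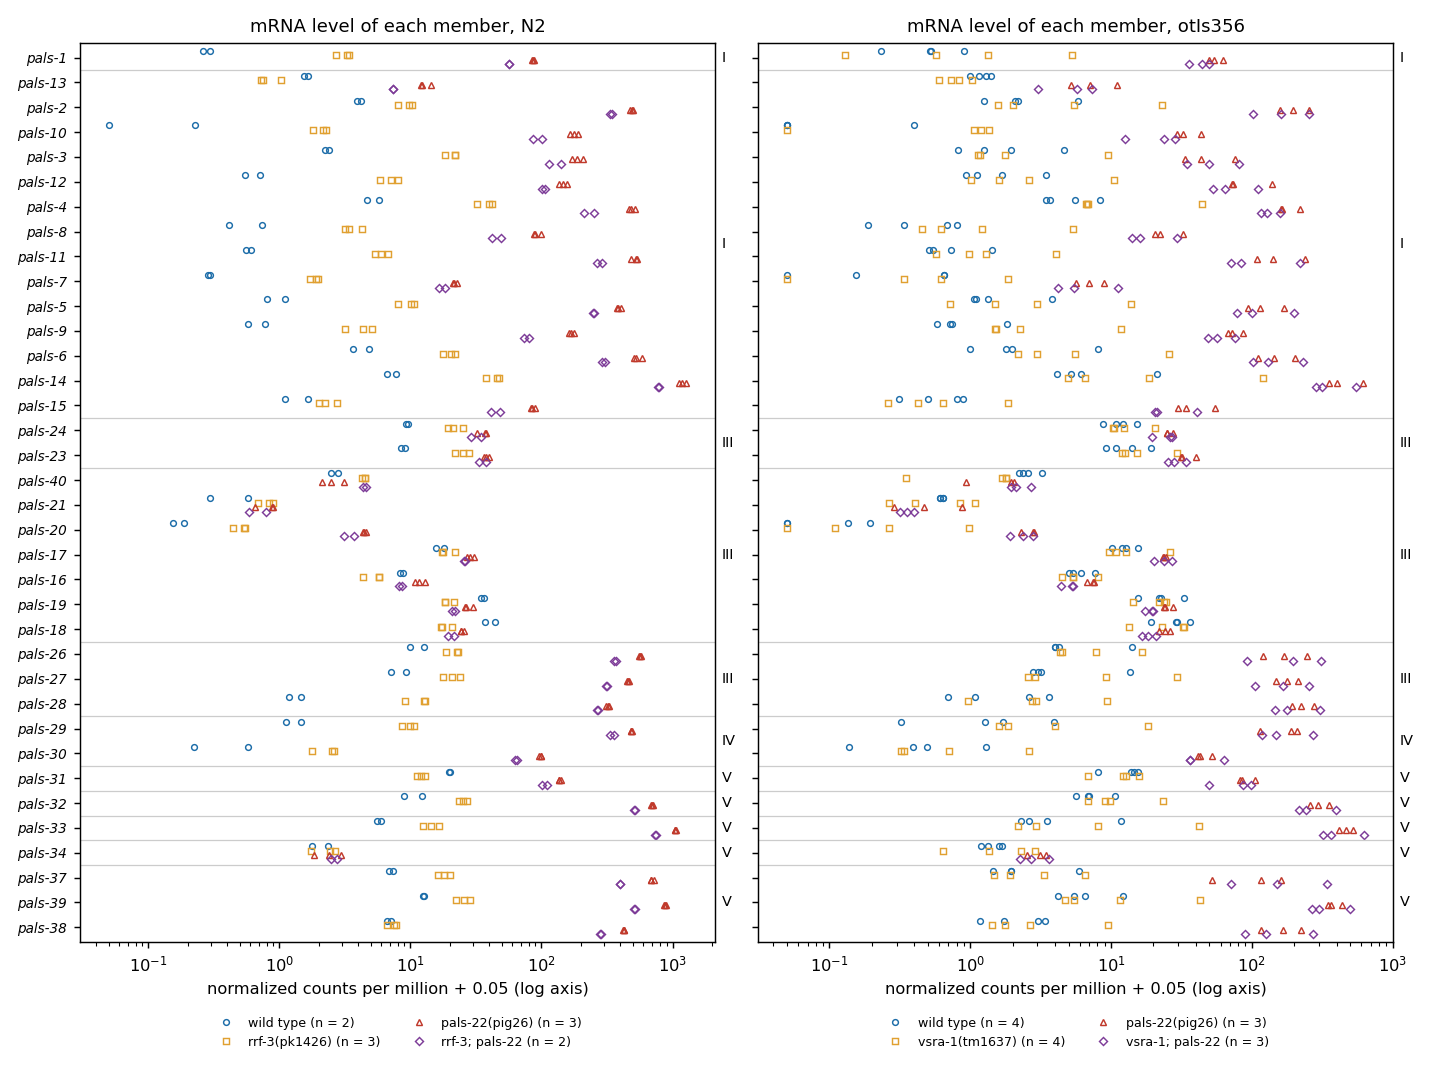
Normalized CPM plus 0.05 (log axis) of each member in every mRNA library, N2 on the left and otIs356 on the right, with members in chromosomal order, grey lines between runs of neighbouring members and symbols for the 4 genotypes of each background. In N2 the pals-22(pig26) libraries lie far to the right of wild type for most members, while those of pals-16 to pals-19, pals-21, pals-34 and pals-40 lie near it.

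The gene pals-5, whose promoter is widely used as a reporter of the pathogen response, measured 0.759 and 1.05 CPM in the N2 wild-type libraries and 386, 375 and 405 CPM in pals-22(pig26). The groups did not overlap, and the change was 8.73 ± 0.201 (SE, adjusted p = 1.43e-08). The gene pals-14 measured 7.68 and 6.57 CPM in wild type and 1170, 1120 and 1271 CPM in the mutant, a change of 7.38 ± 0.166. Per kb of exon, pals-14 was the highest member in the mutant, followed by pals-33 at 801 CPM per kb and pals-10 at 644. The means of these 3 genes not divided by length were 1187, 1050 and 178 CPM, so the place of pals-10 rests on the division.

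The largest change was that of pals-10, the shortest member with 277 bases of exon, at 10.82 ± 0.416. It measured 0 and 0.177 CPM in wild type and 191, 178 and 166 CPM in the mutant. Its size rests on wild type 2, since without that library no wild-type count is left, and without wild type 1 it was 9.91. The next was pals-11, with 0.51 and 0.557 CPM in wild type against 527, 486 and 535 CPM, a change of 9.92 ± 0.168. A stretch of 10.9% of the 31-base words of pals-10 is shared with pals-8, and 26.9% of those of pals-11 with pals-7, so part of their counts could be exchanged between these copies. The same holds most for pals-12, which lies inside pals-3 on the same strand and shares 99.5% of its words, so that the changes of 7.96 for pals-12 and 6.37 for pals-3 are not separate measurements.

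Among the members that did not follow this pattern, pals-18 measured 37.1 and 44.2 CPM in wild type and 24.4, 24.3 and 25.4 CPM in pals-22(pig26). Every mutant library was below both wild-type libraries, and the change was -0.72 ± 0.108 (adjusted p = 0.00125). The overlapping gene pals-19 measured 34.2 and 36.4 CPM against 26.7, 26.1 and 30.2, a change of -0.35 ± 0.0934 (adjusted p = 0.0173). That call was lost when libraries were scaled by their totals alone, with a change of -0.16 and an adjusted p of 0.302 in edgeR's test, and without wild type 2. The gene pals-16 rose by 0.47 ± 0.139, from 8.67 and 8.28 to 11.6, 10.8 and 12.8 CPM, and lost its call without wild type 2.

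The gene pals-40 measured 2.75 and 2.43 CPM in wild type and 2.44, 3.04 and 2.07 CPM in the mutant. The gene pals-34 measured 1.73 and 2.32 CPM in wild type and 1.78, 2.33 and 2.89 CPM. In both the groups overlapped, with changes of -0.04 ± 0.168 and 0.20 ± 0.268, so that a change as large as that of pals-5 lies many SE away. The gene pals-17 rose by 0.77 ± 0.118. The call of pals-21, at 1.00 ± 0.379 and levels under 1 CPM in all 5 libraries, was lost in 6 of 17 alternative settings.

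The other members called higher were pals-1 at 8.54, pals-2 at 6.93, pals-4 at 6.56, pals-6 at 7.0, pals-7 at 6.48, pals-8 at 7.44, pals-9 at 8.07, pals-13 at 3.05, pals-15 at 6.01 and pals-20 at 5.16. The same held for pals-23 at 2.13, pals-24 at 1.94, pals-26 at 5.64, pals-27 at 5.80, pals-28 at 7.94, pals-29 at 8.60 and pals-30 at 8.08. On chromosome V, pals-31 rose by 2.79, pals-32 by 6.04, pals-33 by 7.52, pals-37 by 6.62, pals-38 by 5.96 and pals-39 by 6.13. The changes thus fell into a large group above 5, a group of 4 genes from 1.94 to 3.05 (pals-24, pals-23, pals-31 and pals-13), and a group of 7 genes at or under 1. Changes of pals-20 and pals-37 are uncertain in part, because 40.3% of the words of pals-20 occur in Y82E9BR.5 and 31.03% of those of pals-37 in the antisense RNA anr-30, which overlap them on the other strand, and the use of strand in the mRNA counts is not given in the sources used here.

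Markers of other cell types moved with the comparison in N2, and not all in the same direction. The summed level of 5 intestinal markers was 5290 to 5710 CPM in wild type and 2120 to 2280 CPM in pals-22(pig26), and most of that sum was asp-1, with 4930 to 5320 CPM against 1630 to 1790. The markers ges-1 and vha-6 were lower in every mutant library as well, while elt-2, the intestinal GATA factor gene, measured 19 to 23.5 CPM in wild type and 48.6 to 50.6 CPM in the mutant, and act-5 175 to 205 CPM against 358 to 377. The 4 sperm markers summed to 2.1 to 10.9 CPM against 35.2 to 134, the pharyngeal markers to 34.6 to 36.2 CPM against 69.7 to 82.2 and the neuronal markers to 670 to 724 CPM against 613 to 653. Of the neuronal markers, snb-1 overlapped, at 387 to 420 CPM against 376 to 401, and rab-3, unc-10 and ric-4 were lower in every mutant library. Yolk genes in N2 summed to 2.71 to 13.1 CPM against 11.3 to 27.9. In the other N2 mutants the intestinal sum was 1360 to 3150 CPM in rrf-3(pk1426) and 1830 to 1940 CPM in the double mutant. In otIs356 the intestinal sum was 1260 to 2900 CPM in wild type against 765 to 989 CPM, with elt-2 at 21.4 to 24.2 CPM against 30.1 to 41.4. Body wall muscle markers there summed to 3150 to 4250 CPM against 1430 to 1790, yolk genes to 11.2 to 21.7 CPM against 3.29 to 6.31, and sperm markers to at most 1.81 CPM in both. Most of the muscle sum was unc-54, with 2060 to 2870 CPM against 871 to 1180. The muscle marker unc-15 was lower in every mutant library as well, while the ranges of myo-3 and hlh-1 overlapped. None of the defining markers of intestine, muscle, neurons, pharynx and epidermis was absent. The part of these differences in the changes of the members was not tested, and in whole larvae fewer cells of a type and less RNA per cell cannot be told apart.

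The same comparison in the otIs356 background, with other libraries, called 30 members higher and none lower. Its background was 10.9% of genes called, 5.78% higher and 5.10% lower. The median member changed by 5.3, with a range of -0.66 to 8.32. The members not called were pals-16, pals-18, pals-19, pals-21, pals-34 and pals-40, all of which changed by 1 or less in N2. Across the 36 members, the change in N2 and the change in otIs356 ranked alike (Spearman rho 0.905, a description over genes, which are not replicates).

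**Figure D2:**
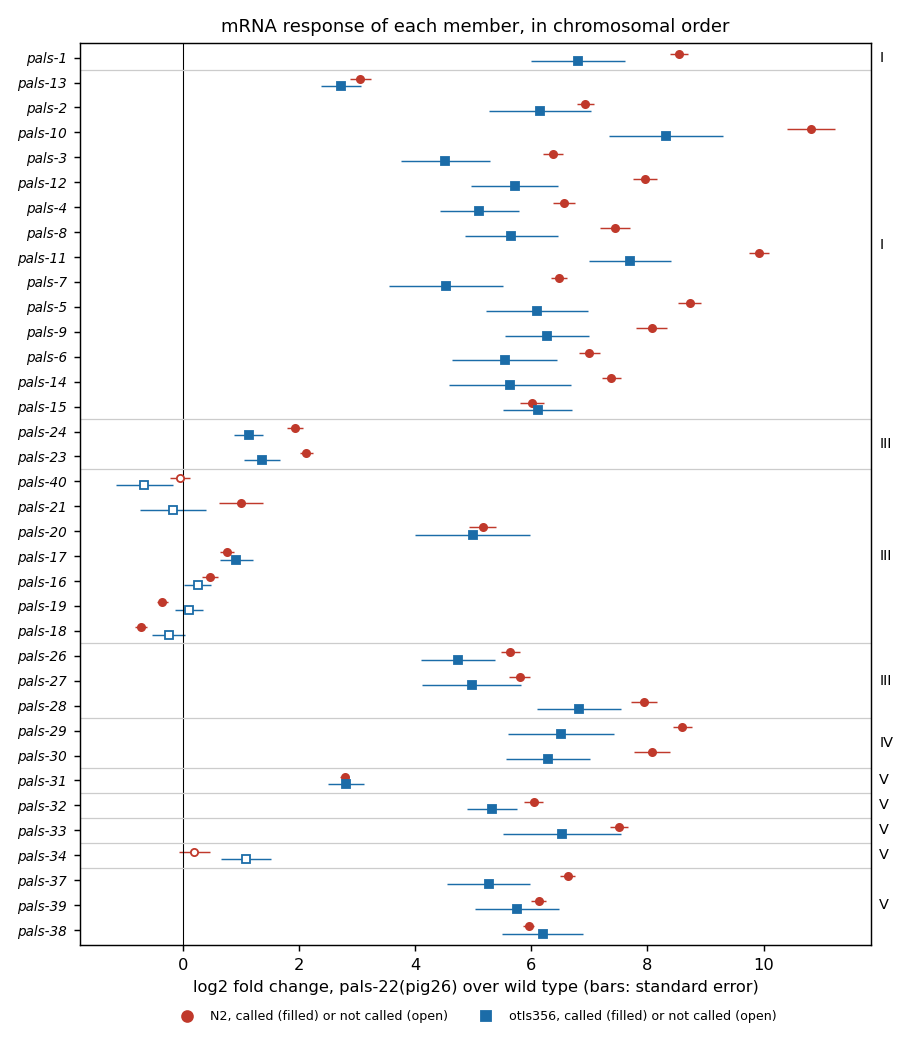
Log2 fold change of pals-22(pig26) over wild type for each member in N2 (circles) and otIs356 (squares), in chromosomal order, with bars for the standard error and open symbols for members not called. The 14 neighbouring members on chromosome I are all to the right of 2, and 6 of the 7 members of the run from pals-40 to pals-18 on chromosome III lie at or under 1 in both backgrounds.

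In otIs356, pals-5 measured 1.01, 1.29, 1.04 and 3.77 CPM in wild type and 115, 93.9 and 169 CPM in pals-22(pig26), a change of 6.09 ± 0.877. The gene pals-14 measured 5.16, 6.02, 4.08 and 21.3 CPM against 405, 354 and 618 CPM, a change of 5.63 ± 1.05. In both genes wild type 4 was the highest of its group and still far below each mutant library. Without the 4 libraries that stand apart, 32 members were called, 31 higher and 1 lower, with 8049 genes called in all (48.1%) against 1820 with them. The gained calls were pals-34, higher at 1.17, and pals-18, lower at -0.39. With all libraries pals-34 measured 1.55, 1.15, 1.29 and 1.63 CPM in wild type and 3.09, 2.48 and 3.42 CPM in the mutant, a change of 1.09 ± 0.433 (adjusted p = 0.14), and its groups did not overlap. In N2 its groups overlapped.

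By position, members within 20 kb of each other formed 11 runs. The largest, 61.3 kb on chromosome I (chrI:13083321-13144623), holds 14 members in the order pals-13, pals-2, pals-10, pals-3, pals-12, pals-4, pals-8, pals-11, pals-7, pals-5, pals-9, pals-6, pals-14 and pals-15. All 14 rose in N2, by 3.05 to 10.8 with a median of 7.19, and all 14 rose in otIs356, by 2.73 to 8.32. The lowest of them was pals-13, at the left end of the run, where the other 13 changed by at least 6.01 in N2. It measured 1.49 and 1.6 CPM in wild type and 12.3, 11.9 and 14.3 CPM in the mutant, and it shares 15.3% of its words with C17H1.2.

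The second run, 29.3 kb on chromosome III (chrIII:1376945-1406263), holds pals-40, pals-21, pals-20, pals-17, pals-16, pals-19 and pals-18. In N2 its calls were 4 higher, 2 lower and 1 not called, with a median of 0.47, and in otIs356 only pals-17 and pals-20 were called. The exception in the run was pals-20, which measured 0.105 and 0.139 CPM in wild type and 4.53, 4.41 and 4.29 CPM in the mutant, beside pals-17, on the same strand and 2126 bases away, at 15.7 and 18 CPM against 26.9, 28.7 and 30.7. In otIs356, pals-20 measured at most 0.143 CPM in the 4 wild-type libraries and 2.81, 2.25 and 2.72 CPM in pals-22(pig26).

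The remaining runs were small. Beside pals-22 and pals-25 on chromosome III, pals-24 and pals-23 rose by 1.94 and 2.13 in N2 and by 1.14 and 1.37 in otIs356. The call of pals-23 in otIs356 was lost without mutant replicate 2. The run of pals-26, pals-27 and pals-28 rose by 5.64 to 7.94, pals-29 and pals-30 on chromosome IV by 8.08 to 8.6, and pals-37, pals-39 and pals-38 on V by 5.96 to 6.62. Single members were pals-1 on I and pals-31, pals-32, pals-33 and pals-34 on V, with changes from 0.20 to 8.54.

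A total of 20 pairs of members were consecutive by position, with no protein-coding gene from outside the family between them. Their changes differed by a median of 1.22 (log2) in N2, against 2.85 over all 630 pairs of members, and by 0.638 against 2.03 in otIs356. The 4 divergent pairs differed by a median of 0.518 in N2, the 13 pairs on the same strand by 1.37 and the 3 convergent pairs by 2.48. The divergent pairs include pals-12 and pals-4, which differed by 1.41 and have pals-3 spanning the stretch between them. The pairs on the same strand include pals-3 and pals-12, which are not separate measurements. The divergent pair pals-6 and pals-14, with starts 578 bases apart, changed by 7.0 and 7.38, while the convergent pair pals-10 and pals-3, 39 bases apart, changed by 10.82 and 6.37. With so few pairs of each kind these are descriptions.

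The nearest protein-coding genes that are not members, beside or inside the runs, were 32 genes. Of the 28 tested in N2, 17 were called higher, 2 lower and 9 were not called, with a median of 1.1. Of the 25 tested in otIs356, 8 were higher and 17 were not called. Over all genes tested, 23.3% were higher and 27.8% lower in N2, and 5.78% and 5.1% in otIs356. Beside pals-13, Y26D4A.12 was at 0 CPM in the N2 wild-type libraries and at 7.69, 8.31 and 5.79 CPM in the mutant. The size of its change thus rests on no wild-type count. Inside the run on chromosome I, C17H1.2 rose by 8.04 ± 0.165, from 0.601 and 0.812 CPM to 182, 186 and 194 CPM. Beside the runs, Y39H10B.3, next to pals-33, rose by 6.42, and C54D10.9, next to pals-38, by 3.87. On the other side of pals-33, W08A12.3 changed by -0.19 and was not called. Between pals-29 and pals-30, T27E7.9 rose by 7.06. At the right end of the run on III, Y82E9BR.22 fell by 0.79, and beside pals-1, timm-23, which encodes a subunit of the mitochondrial import machinery, fell by 0.87.

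In wild-type N2, pals-19 was the highest member per kb at 36.6 CPM per kb, followed by pals-31 at 22.3, pals-17 at 19.4 and pals-18 at 17.2. The lowest were pals-20 at 0.123, pals-7 at 0.212 and pals-1 at 0.236. In CPM not divided by length the order differed, with a mean of 40.6 for pals-18 and 35.3 for pals-19. The library values of pals-31 were 20.1 and 19.7 CPM in wild type and 137, 141 and 137 CPM in pals-22(pig26). Of these 4 highest members, pals-31 was the only one that rose by more than 1. The 28 members that rose by more than 2 had a median wild-type level of 1.11 CPM per kb with a range of 0.123 to 22.3, and the 7 that changed by less than 1 had a median of 7.89 with a range of 0.706 to 36.6. In the mutant the medians were 274 and 10.5 CPM per kb. The ranges in wild type overlapped, since pals-21 and pals-34 were low and changed little, and pals-31, pals-39 and pals-32 were high and rose. The split was made on the N2 change, so the N2 medians in wild type and mutant are partly fixed by it. In otIs356, whose libraries did not enter the split, the medians of the same members were 1.5 and 5.6 CPM per kb in wild type. In the otIs356 mutant they were 103 and 6.68 CPM per kb.

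To set level against change without a shared library, the wild-type level in otIs356 was compared with the change in N2. Across the 36 members Spearman's rho was -0.553, and without wild type 4 it was -0.633. The wild-type level in N2 and the change in otIs356 gave -0.482. These values describe the genes, which share libraries and are not independent.

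**Figure D3:**
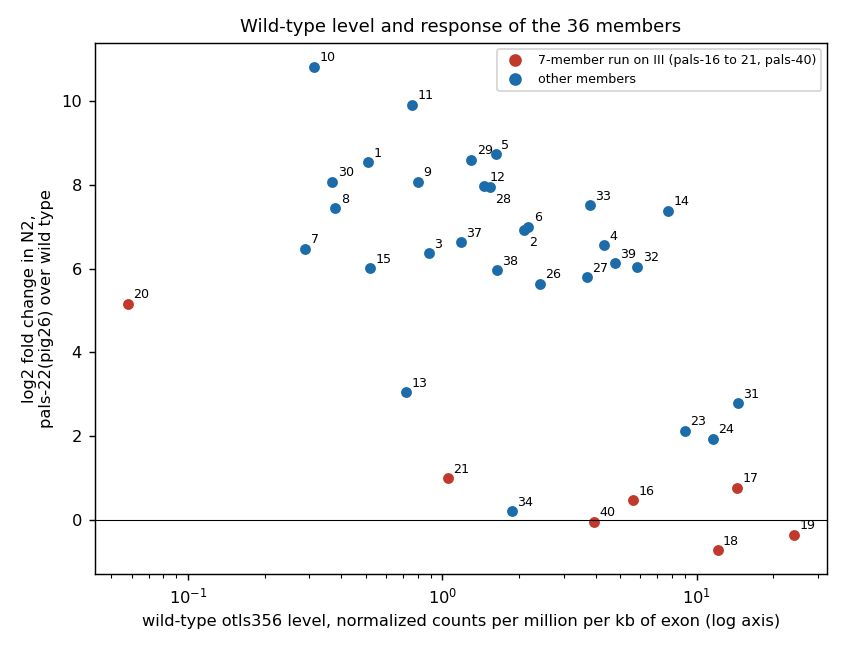
Wild-type level of each member in otIs356 (CPM per kb of exon, log axis) against its log2 fold change in pals-22(pig26) over wild type in N2, with member numbers beside the points and the run of 7 members on chromosome III in red. The members above 5 on the vertical axis lie at wild-type levels from 0.0581 to 7.7 CPM per kb, and the red points of pals-17, pals-18 and pals-19 lie at 12.1 or more, while pals-20, red, sits alone at the far left.

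Loss of rrf-3 alone moved the family in the same table, by less. In rrf-3(pk1426) against wild type, 28 members were called higher, 5 lower and 3 were not called, where 67.7% of all genes were called, 31.9% higher and 35.8% lower. The median member rose by 1.35. The summed level of the family was 410 to 493 CPM, against 231 and 247 CPM in wild type. Members called lower were pals-13, pals-16, pals-18, pals-19 and pals-31, and pals-17, pals-34 and pals-38 were not called. Scaled by library totals alone, which moved the median of all genes by 0.435, 30 members were called higher and 3 lower. In that fit 9071 of all 18986 genes were called higher and 3110 lower. The members pals-13 and pals-16 then lost their calls, and pals-17 and pals-38 were called higher.

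The 5 largest changes were those of pals-10, pals-1, pals-12, pals-11 and pals-5. The gene pals-10 measured 2.24, 2.1 and 1.76 CPM in rrf-3(pk1426) and rose by 4.36 ± 0.474, with the limit given above on its wild-type counts. The gene pals-1 measured 0.21 and 0.248 CPM in wild type and 3.36, 3.21 and 2.67 CPM, a rise of 3.73 ± 0.157. In pals-12, 0.666 and 0.497 CPM in wild type stood against 7.01, 8.02 and 5.85, a rise of 3.57, and in pals-11, 5.92, 6.76 and 5.35 CPM gave a rise of 3.49. The gene pals-5 measured 10.7, 10 and 8.02 CPM, a rise of 3.38 ± 0.174. None of these groups overlapped wild type, which their choice as the largest changes partly fixed. In these genes every rrf-3 library lay below every library of pals-22(pig26).

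By run, 13 of the 14 members on chromosome I were higher with a median of 2.8, and the lower one was pals-13 at -0.97. In the run on III from pals-40 to pals-18 the median was 0.17, with 3 higher, 3 lower and 1 not called. The gene pals-18 measured 17.4, 17.1 and 20.8 CPM in rrf-3(pk1426) against 37.1 and 44.2 in wild type, a change of -1.14 ± 0.108. The members of the run on V rose by at most 1.35, and pals-38, at 0.09, was not called. In pals-28 the rise was 3.16, against 0.92 and 1.34 for pals-26 and pals-27 in the same run.

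In the double mutant the direction was the opposite. In rrf-3; pals-22 against pals-22(pig26), 27 members were called lower, 1 higher and 8 were not called, where 35.6% of all genes were called, 18.5% higher and 17% lower. The median was -0.53, with a range of -1.14 to 0.82. All 14 members of the run on chromosome I were lower. The summed level was 6790 and 6830 CPM in the double mutant against 10400 to 10800 CPM in the single mutant. The member called higher was pals-40, which measured 2.44, 3.04 and 2.07 CPM in pals-22(pig26) and 4.57 and 4.27 CPM in the double mutant, a change of 0.82 ± 0.163. Scaled by library totals alone, 18 members were called, 17 lower and 1 higher. In that fit 3927 of all 18986 genes were called higher and 1755 lower.

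The gene pals-9 had the largest fall, from 177, 167 and 163 CPM to 80.2 and 73.4 CPM, a change of -1.14 ± 0.171. The gene pals-5 measured 251 and 247 CPM in the double mutant, a change of -0.64 ± 0.127, and pals-14 measured 777 and 787 CPM, a change of -0.60 ± 0.117. In both genes every double-mutant library was below every library of pals-22(pig26) and above every library of rrf-3(pk1426).

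**Figure D4:**
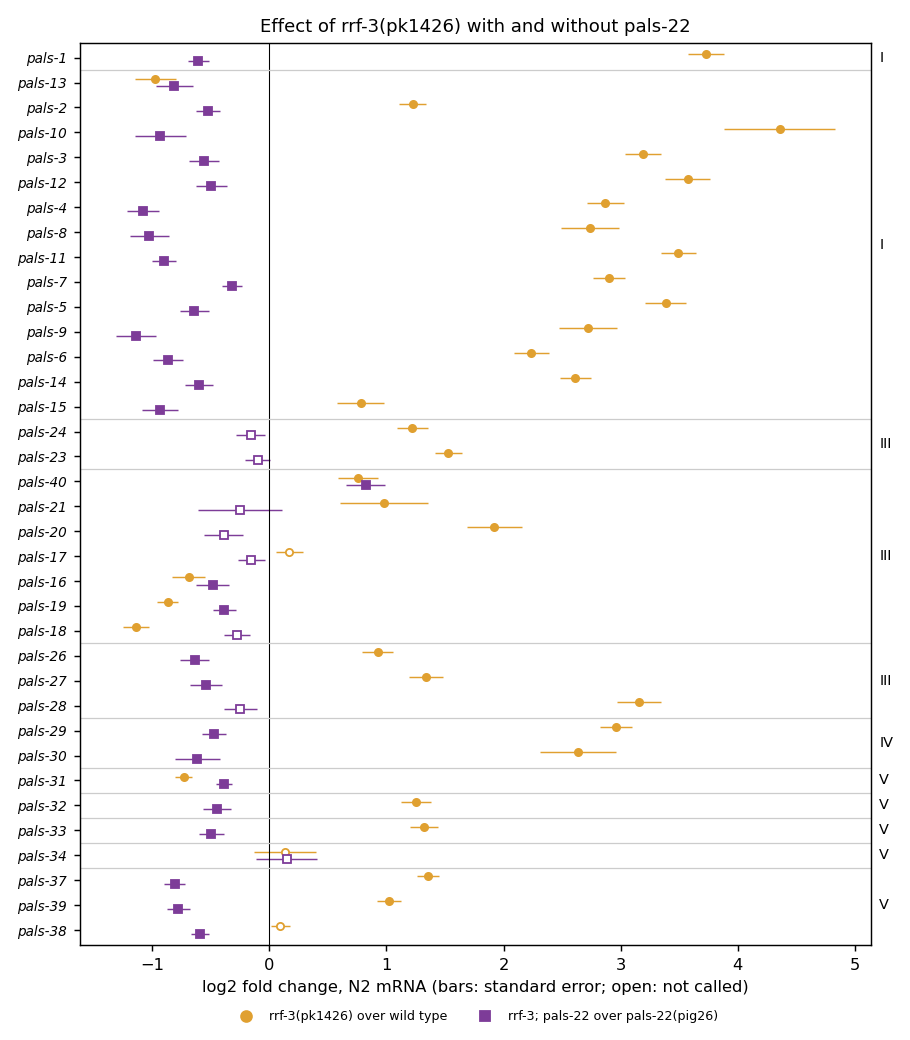
Log2 fold change of rrf-3(pk1426) over wild type (circles) and of rrf-3; pals-22 over pals-22(pig26) (squares) for each member in N2 mRNA, with bars for the standard error and open symbols for members not called. Most circles lie to the right of 0 and most squares to the left, while pals-13, pals-16, pals-18, pals-19 and pals-31 have both on the left and pals-34 and pals-40 have both on the right.

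Against rrf-3(pk1426), the double mutant had 31 members higher, none lower and 5 not called, pals-18, pals-19, pals-21, pals-34 and pals-40, where 7.45% of all genes were called, 5.25% higher and 2.21% lower. The median was 3.91. A test of the interaction asked whether the effect of rrf-3 differed between wild type and pals-22(pig26). It called 27 members lower, 3 higher (pals-18, pals-19 and pals-31) and 6 not, where 37.2% of all genes were called, 21.5% higher and 15.7% lower. For pals-5 the interaction was -4.02 ± 0.217 and for pals-13, whose rrf-3 effect was -0.97 without and -0.81 with the pals-22 mutation, it was 0.16 ± 0.233 and was not called. For pals-18 it was 0.86 ± 0.154. The call of pals-31, at 0.34, was lost with library totals alone.

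In otIs356, vsra-1(tm1637) against wild type called none of the 36 members in edgeR's quasi-likelihood test, where 0.00598% of all genes were called. At an unadjusted p under 0.05 the test gave 7 members, where it gave 2081 of all 16724 genes tested. DESeq2 called 4 members (pals-4, pals-8, pals-9 and pals-10, all higher), where it called 911 of all genes, 376 of them higher. That DESeq2 fit held all libraries, vsra-1 replicate 3 included. The median change was 0.816, and without vsra-1 replicate 3 it was -0.05. The summed level of the family was 167, 179, 624 and 183 CPM in the vsra-1 libraries, so replicate 3 alone was high, against 157 to 240 CPM in wild type. Without the 4 libraries that stand apart, no member was called either and the median was -0.02. The mRNA of vsra-1 measured 11.7, 11, 11.7 and 9.31 CPM in vsra-1(tm1637) against 11.6 to 14.8 CPM in wild type, so its level does not check the label of this deletion allele.

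In vsra-1; pals-22 against pals-22(pig26), no member was called by edgeR or DESeq2, and none had an unadjusted p under 0.05 in edgeR's test. Of all 16724 genes, edgeR called 0.00598%, DESeq2 called 51, and 641 had an unadjusted p under 0.05 in edgeR's test. The median change was -0.15. Without the 4 libraries that stand apart, no member was called by edgeR, where 0.0478% of all genes were called, and the median was -0.09. The gene pals-5 measured 78.7, 198 and 99.9 CPM in the double mutant against 115, 93.9 and 169 CPM, and pals-14 measured 285, 553 and 316 CPM against 405, 354 and 618. The groups overlapped in both genes, with SEs of 0.782 and 0.971. A change of 1 in either direction would not have been called, and a considerably larger one could have been missed too. In vsra-1(tm1637) against wild type, a member change of 2.92 was not called. Against vsra-1(tm1637) the double mutant had 28 members higher, none lower and 8 not called, where 10.9% of all genes were called, 6.66% higher and 4.26% lower. The 8 were pals-16 to pals-19, pals-21, pals-23, pals-34 and pals-40. Without the 4 libraries that stand apart, 30 members were higher and 1 lower, where 38% of all genes were called. The interaction called no member and 0.00598% of all genes, with a median of -0.88 that was -0.19 without vsra-1 replicate 3. At an unadjusted p under 0.05 it gave 3 members, where it gave 1070 of all 16724 genes. DESeq2 called no member and 56 of all genes. Without the 4 libraries that stand apart, edgeR's interaction test called no member and 0.00598% of all genes, with a median of -0.19.

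The sRNA values are reads antisense to a gene. In N2, 13 of the 36 members passed the filter of more than 5 RPM in at least 1 library. Of these, 10 were called higher in pals-22(pig26), 1 lower (pals-18) and 2 not (pals-1 and pals-31), where 39.1% of all genes tested were called, 18.3% higher and 20.8% lower. Of the 13, 3 (pals-1, pals-14 and pals-18) were above 5 RPM in a wild-type library and the other members passed through mutant libraries alone, so that the count and its median are shaped by the filter. The median change was 4.04, also with pals-11 at its bound. With genes over 1 RPM tested, 18 of 22 members were called, 16 of them higher, where 34.6% of all genes were called, and with no filter 24 of 35, 22 of them higher, where 14.9% were called. Scaled by library totals alone, which put the median of all genes at 0.35, pals-1 and pals-31 were called higher as well. In that fit 5024 of all 7243 genes were called higher and 599 lower. With TMM scaling, the summed antisense level of the family was 64.2 to 64.9 RPM in wild type and 154 to 166 RPM in the mutant.

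Among the members that passed, the largest rises were those of pals-11, pals-33, pals-39, pals-28 and pals-38. Outside the filter, pals-32 held 2 wild-type counts against 119 in the mutant and pals-7 2 against 92, ratios of 38 and 29.4 with exact 95% intervals of 10.3 to 318 and 7.91 to 246. The gene pals-11 was at 0 in all 3 wild-type libraries and at 6.43, 7.98 and 6.62 RPM in pals-22(pig26), which is at least 25.4-fold above the largest floor of 3 counts per wild-type library, 0.276 RPM on the same scale. The gene pals-33 measured 0.0479, 0.185 and 0.0538 RPM in wild type and 23.4, 31.5 and 33 RPM in the mutant, a change of 8.40 ± 0.298 (adjusted p = 1.69e-09). The gene pals-39 held 3 counts in all wild-type libraries together and 276 in the mutant, a ratio of 58.8 with an exact 95% interval of 19.9 to 287 for counting error only. The gene pals-28 measured 0.479, 0.0927 and 0 RPM against 9.24, 8.04 and 10.7, a change of 5.38, and pals-38 measured 0.336, 0.742 and 0.215 RPM against 10.2, 8.57 and 10, a change of 4.64. In all 5 genes the groups did not overlap. That separation was partly fixed in advance, since they were chosen by size of rise and passed the filter in mutant libraries alone.

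**Figure D5:**
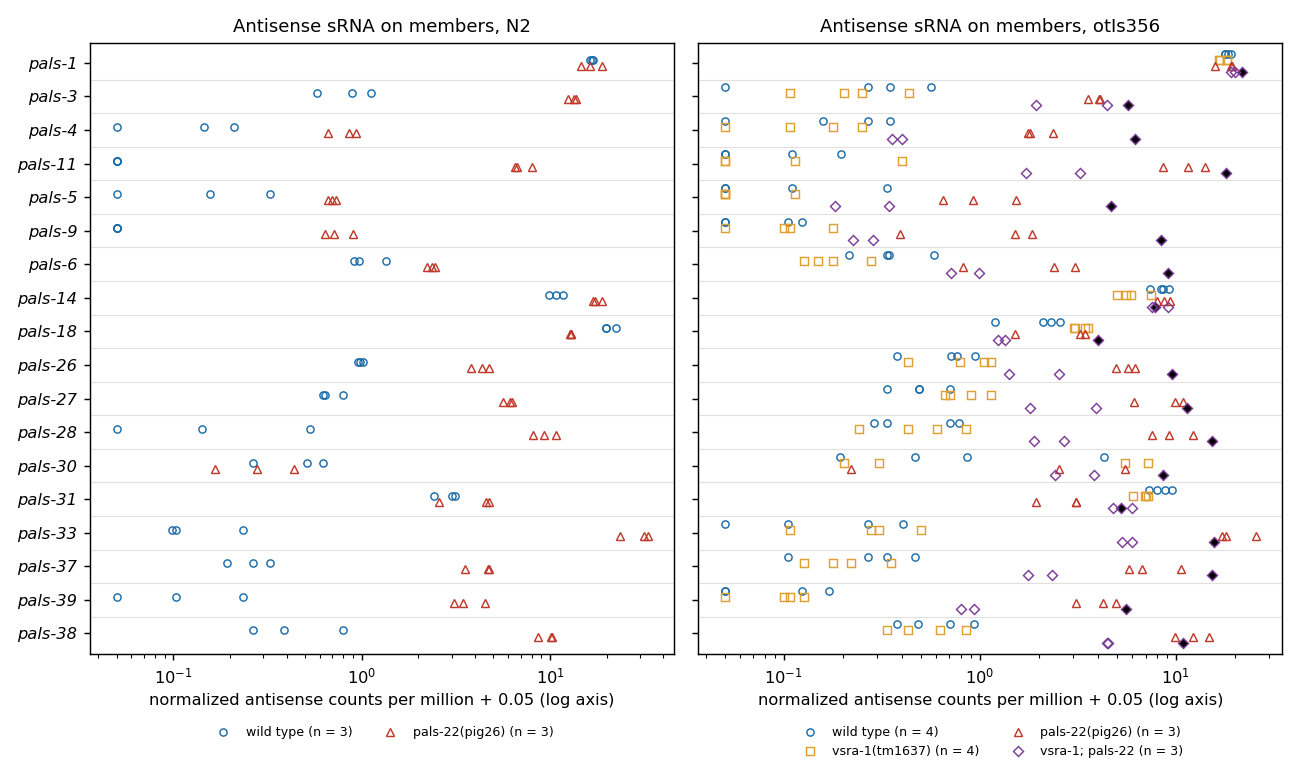
Normalized antisense RPM plus 0.05 (log axis) of the 18 members tested in either sRNA table, N2 on the left and otIs356 on the right, in every library. In N2 the mutant libraries of pals-33 and pals-11 lie farthest from wild type and those of pals-1 overlap it, and in otIs356 double-mutant replicate 1, filled black, lies to the right of the other 2 double-mutant libraries for most members.

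The wild-type libraries held most of their antisense reads on other members. The highest were pals-18 with 22.2, 19.8 and 19.8 RPM, pals-1 with 16.8, 16.6 and 16.3 RPM and pals-14 with 10.7, 9.83 and 11.6 RPM. In pals-22(pig26), pals-18 measured 12.8, 12.9 and 12.9 RPM, a change of -0.69 ± 0.0865, and its mRNA was lower as well. The gene pals-1 measured 18.7, 14.6 and 16.3 RPM, a change of 0.02 ± 0.101, while its mRNA rose by 8.54. That flat sRNA level depended on TMM. Without it the means of pals-1 were 14.6 RPM in wild type and 18.5 RPM in the mutant, and the gene was called higher. The gene pals-14 measured 16.9, 17.4 and 18.7 RPM, a change of 0.70 ± 0.0976, while its mRNA rose by 7.38.

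The other members called higher in N2 were pals-3 at 4.04, pals-26 at 2.18, pals-27 at 3.27 and pals-37 at 4.35. Antisense reads on pals-37 can come from its overlapping antisense gene anr-30. Few antisense reads fell on pals-10, with 0.0619, 0 and 0 RPM in pals-22(pig26), where its mRNA measured 166 to 191 CPM, and on pals-29, with 0.227, 0.235 and 0.154 RPM beside 478 to 487 CPM. No read was counted on pals-12, which cannot be separated from pals-3. Across the 13 members tested in N2, the sRNA and mRNA changes had a Spearman rho of 0.505, and the wild-type antisense level and the mRNA change one of -0.445. In otIs356 the same relations over 17 members were 0.392 and -0.162. These are descriptions over members that passed partly through their mutant level.

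In otIs356, 17 members passed the filter, and 13 were called higher, 1 lower (pals-31) and 3 not (pals-1, pals-14 and pals-30) in pals-22(pig26) against wild type, where 26.3% of all genes were called, 11.7% higher and 14.6% lower. The median change was 3.87. Only pals-1, pals-14 and pals-31 were above 5 RPM in a wild-type library. The members pals-3, pals-4, pals-5, pals-6 and pals-9 passed through double-mutant replicate 1 alone, the library that stands apart, and without these 5 members the calls were 8 higher, 1 lower and 3 not, with a median of 4.23. With no filter 22 of 35 members were called, where 8.8% of all genes were called. Among the members that passed, the 5 largest changes were those of pals-11, pals-33, pals-39, pals-37 and pals-9, and outside the filter pals-29 held 1 wild-type count against 27, a ratio of 37.2 with an interval of 6.14 to 1520. The gene pals-11 measured 0.147, 0.0597, 0 and 0 RPM in wild type and 8.58, 14 and 11.5 RPM in the mutant, or 3 counts against 483, a ratio of 222 with an exact 95% interval of 75.5 to 1080. The gene pals-33 measured 0.22, 0.358, 0.0548 and 0 RPM against 17.2, 25.5 and 18 RPM, a change of 6.77 ± 0.573. The gene pals-37 changed by 4.98, and pals-39 and pals-9 held 3 and 2 wild-type counts against 177 and 53 in the mutant.

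The gene pals-31 differed between backgrounds in sRNA. In otIs356 it measured 9.48, 7.22, 7.99 and 8.77 RPM in wild type and 1.89, 3.04 and 3.05 RPM in pals-22(pig26), a change of -1.65 ± 0.179 (adjusted p = 1.4e-05). In N2 it measured 3.07, 2.97 and 2.37 RPM against 4.49, 2.52 and 4.7, a change of 0.50 ± 0.254 that was not called. With library totals alone it was called higher in N2. The difference between the backgrounds was not tested, because the tables were fitted separately. Its mRNA rose by 2.79 and 2.81 in the 2 backgrounds. The gene pals-14, called higher in N2, measured 7.33 to 9.19 RPM in wild type and 8 to 9.25 RPM in the mutant here. The gene pals-18, the highest in N2 wild type, did not pass the filter in otIs356, where it measured 2.06, 2.27, 2.52 and 1.15 RPM in wild type and 1.46, 3.41 and 3.2 RPM in the mutant. The tables were scaled separately.

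Loss of vsra-1 alone called 1 member in sRNA, pals-14, lower at -0.50 ± 0.13 (adjusted p = 0.0546), where 4.96% of all genes were called, 2.66% higher and 2.3% lower. It measured 5.86, 7.41, 4.96 and 5.53 RPM against 7.33 to 9.19 RPM in wild type, and the groups overlapped. The call was lost with library totals alone and without any of 6 single libraries.

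In vsra-1; pals-22 against pals-22(pig26), 1 member was called, pals-31, higher at 0.99 ± 0.186, where 10% of all genes were called, 6.69% higher and 3.34% lower. That count depended on double-mutant replicate 1, in which the summed antisense level of the family was 210 RPM, against 78.4 and 65.9 RPM in replicates 2 and 3 and 115 to 167 RPM in pals-22(pig26). In pals-33, for example, the double-mutant libraries measured 15.5, 5.94 and 5.23 RPM and in pals-11 18, 3.18 and 1.67 RPM. Without replicate 1, 11 members were called, 10 of them lower: pals-4, pals-9, pals-11, pals-26, pals-27, pals-28, pals-33, pals-37, pals-38 and pals-39, by -1.47 to -2.53, where 12.9% of all genes were called in that fit, 7.17% higher and 5.73% lower. Of these 10, pals-4 and pals-9 had passed the filter through replicate 1 alone. Apart from replicate 1, pals-11, pals-26, pals-27, pals-28, pals-37, pals-38 and pals-39 were over 5 RPM only in pals-22(pig26) libraries. Those libraries are the reference of this comparison, so the count of lower members is shaped by the filter. In the mRNA of the same genotypes no member was called.

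Against vsra-1(tm1637), the double mutant had 15 members higher in sRNA and 2 not called (pals-30 and pals-31), where 22.6% of all genes were called, 12.1% higher and 10.5% lower. The median change was 4.27. Without the 5 members that passed the filter through double-mutant replicate 1 alone, the counts were 10 higher and 2 not called, with a median of 3.21. With that library left out of the fit, 11 of the 17 were called higher, where 13.5% of all genes were called, and the median was 2.17. Among the members that passed, the 5 largest changes were those of pals-5, pals-11, pals-39, pals-9 and pals-37, and pals-5 held 1 count in all vsra-1 libraries together against 86, of which 78 were in replicate 1. Outside the filter, pals-8 and pals-7 also held 1 count in the vsra-1 libraries, against 51 and 45. The interaction of vsra-1 and pals-22 called pals-31 alone, at 1.30 ± 0.238, where 8.90% of all genes were called, 5.76% higher and 3.15% lower. Without double-mutant replicate 1 it called 5 members, pals-26, pals-27, pals-28 and pals-33 lower and pals-31 higher. In that fit 10.2% of all genes were called. Apart from replicate 1, pals-26, pals-27 and pals-28 were over 5 RPM only in pals-22(pig26) libraries, so these calls are shaped by the filter.

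Other genes of the intracellular pathogen response, together with some of its regulators, were read from a list of 24 names. Of these, 5 are older names of members, 1 had no value and 18 were tested. In pals-22(pig26) against wild type in N2, 16 of the 18 were called higher, 1 lower (pnp-1, a purine nucleoside phosphorylase, at -0.45) and 1 not (lin-35, the Retinoblastoma homolog, at 0.16), with a median of 3.64. The 4 largest were fbxa-75, an F-box gene, at 8.53, chil-27, a chitinase-like gene, at 8.05, eol-1 at 7.25 and ZC196.3 at 7.24. Over all genes tested, 23.3% were higher and 27.8% lower. The transcription factor gene zip-1, an activator of the response, rose by 1.74. An earlier study, cited by the authors, found that losing lin-35 resembled loss of pals-22 at the level of transcripts. In rrf-3(pk1426), 15 were higher and 2 lower (zip-1 and pnp-1), where 31.9% of all genes were higher and 35.8% lower. In rrf-3; pals-22 against pals-22(pig26), 1 was higher and 12 lower, where 18.5% of all genes were higher and 17% lower. In otIs356 pals-22(pig26), 16 were higher and none lower, where 5.78% of all genes were higher and 5.1% lower. No gene of the list was called in vsra-1(tm1637) mRNA, where 0.00598% of all genes were called.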

How the data were processed

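For mRNA, the authors pseudo-aligned reads with kallisto through RNAlysis and deposited values per gene labelled as scaled, which were taken here as estimated counts. They were rounded here, since 91.94% (N2) and 84.78% (otIs356) were fractional. For sRNA, the authors trimmed reads with CutAdapt, aligned them to ce11 with ShortStack and deposited whole read counts per gene from featureCounts, without normalization. These are antisense counts: mir-1 held 0.0824 RPM in N2 and the gene opposite it, T09B4.14, 172382. Names and positions are from Ensembl release 115 (WBcel235).

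In R 4.3.3, edgeR 4.0.16 fitted each table whole, with genotype as the only factor and TMM scaling. Its quasi-likelihood test was two-sided, with Benjamini-Hochberg adjustment and a threshold of 0.1. The mRNA filter was filterByExpr (count 10, total 15), with 18986 N2 and 16724 otIs356 genes kept, and the sRNA filter was over 5 RPM in 1 library, with 7243 and 8042 kept. A count of 0 allows 3 counts, before TMM scaling at most 0.0822, 0.548, 0.261 and 0.377 RPM in N2 mRNA, otIs356 mRNA, N2 sRNA and otIs356 sRNA. Floors and intervals cover counting error only. No library repeated another. The fits were tested on simulated data.

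Alternatives were DESeq2 1.42.0, other scaling, other filters, only the compared groups, a replicate block and leaving out each library. Leaving out the 4 otIs356 mRNA libraries that stand apart was chosen after seeing the data. The members, lists and limits were chosen with earlier results of these data known. Named genes were every member, with library values for pals-5, pals-14 and the members with the largest or smallest change, the highest level or a call in rrf-3, vsra-1 or sRNA comparisons. Shared reads were judged by 31-base words common to transcripts.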

Additional observations from a re-analysis of the deposited data

Results flagged for a closer look

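In the otIs356 mRNA libraries, 1 library lay apart from the others of its genotype for many members, by Dixon's gap test at its 95% value, which chance passes in about 1 of 20 groups. Wild type 4 was the highest wild-type library for 9 members, at 3.77 CPM for pals-5, 7.98 for pals-6, 1.79 for pals-9, 0.347 for pals-10, 21.3 for pals-14, 14.1 for pals-26, 13.7 for pals-27, 11.7 for pals-33 and 5.89 for pals-37. The next highest wild-type library measured 1.29 CPM for pals-5 and 6.02 for pals-14. The library vsra-1 replicate 3 lay apart for 12 members. It was the highest of its genotype at 9.5 CPM for pals-3, 44.1 for pals-4, 25.8 for pals-6, 5.33 for pals-8, 11.8 for pals-9, 10.4 for pals-12, 119 for pals-14, 18.3 for pals-29, 2.59 for pals-30, 42.4 for pals-33 and 9.42 for pals-38, and the lowest at 0.301 CPM for pals-40, which did not rise in pals-22(pig26) either. All of these values were below those of every otIs356 pals-22(pig26) library for the members that rose there.

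In otIs356 sRNA, wild type 3 stood apart for pals-30 at 4.27 RPM, where the next library measured 0.808, and vsra-1 replicate 1 for pals-5 at 0.0644 RPM, the only one of its genotype above 0, which is 1 count.

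The effect of rrf-3 on 30 members differed between wild type and pals-22(pig26) by the interaction test, and the effect of vsra-1 on antisense sRNA differed for 1 member, pals-31.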

How the results depend on the processing

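Across 458 results of single members and 8692 values under alternatives, 8482 kept their direction and side of the threshold, 150 lost a call, 57 gained one and 3 reversed. Scaled by library totals alone, 18 members were called in rrf-3; pals-22 against pals-22(pig26), where 28 were called with TMM, and pals-31 reversed in the rrf-3 interaction at -0.00722. That scaling raised the median of all genes by 0.157 in N2 pals-22(pig26) mRNA, by 0.435 in rrf-3(pk1426) and by 0.35 in N2 sRNA. In N2 sRNA it added calls for pals-1 and pals-31. DESeq2 called 4 members in vsra-1(tm1637) mRNA, where it called 911 of all genes. In N2 sRNA, genes over 1 RPM gave 18 called members and no filter 24, against 11. In otIs356 sRNA, no filter gave 22 in pals-22(pig26) against 14, 0 in vsra-1(tm1637) against 1 and 3 in the double mutant against pals-22(pig26), against 1. With only the compared groups fitted, 0 were called in both of the latter, and with library totals alone 0 in vsra-1(tm1637). Over members above 1 RPM, rho between sRNA and mRNA change was 0.543 in N2 and 0.533 in otIs356, and between wild-type sRNA and mRNA change -0.273 in otIs356. The looser filters test more members.

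Leaving out 1 library at a time moved the counts of called members in otIs356 sRNA from 0 to 1 in vsra-1(tm1637), from 1 to 11 in vsra-1; pals-22 against pals-22(pig26) and from 1 to 5 in the interaction. Without double-mutant replicate 1, pals-4 and pals-9 reversed, to -2.53 and -2.52, while without replicate 2 they were at 0.743 and 1.83. In N2 mRNA the counts stayed at 31 to 34 in pals-22(pig26), 32 to 34 in rrf-3(pk1426), 19 to 31 in the double mutant against pals-22(pig26), 28 to 31 against rrf-3(pk1426) and 29 to 31 in the interaction, and in otIs356 mRNA at 28 to 31 in pals-22(pig26). The causes were not tested.

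Libraries with the same replicate number did not all deviate together, with a correlation over 0.1 in 1 of 13 pairs in N2 mRNA, 8 of 19 in otIs356 mRNA, 1 of 3 in N2 sRNA and 1 of 19 in otIs356 sRNA. The replicate block gave 2 called members in vsra-1; pals-22 against pals-22(pig26) sRNA in place of 1, and moved no other count of called members by more than 1.5 times. Depth limits members with few counts, chiefly pals-10, pals-20 and pals-21 in mRNA and, in wild-type sRNA, most members other than pals-1, pals-14 and pals-18.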
